A study of Macaca fuscata with 12 samples.

Results

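NEFH and SCN3B are neuronal genes whose array signals lay apart between 2 parts of the left cerebral cortex of Japanese macaques (Macaca fuscata), in opposite directions. The array's gene table gives the single symbol NEFH to 1 probe set, MmugDNA.18337.1.S1_at, and the single symbol SCN3B to 3, MmugDNA.34281.1.S1_at, MmugDNA.34284.1.S1_at and MmunewRS.814.1.S1_at. These 4 probe sets of 2 genes are taken from 52766 probe sets and 14132 genes with a single symbol. Both genes were chosen for their difference between the regions in these same arrays, so that difference is given below as a description without a test. The comparisons of trained with control animals did not enter the choice and were tested.

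Expression was measured on 12 Affymetrix rhesus arrays with RNA from 8 animals. Tissue came from around the lateral sulcus, where the secondary somatosensory cortex (SII) lies, or from around the intraparietal sulcus (IPS), and the animals were either controls or trained in tool use, which gave 4 groups of 3 arrays. The SII controls were a female (340F) of 4 years 6 months and males of 5 years 4 months (347M) and 5 years 10 months (354M). The trained SII animals were males of 5 years 7 months (334M) and 5 years 1 month (348M) and a female (335F) of 3 years 10 months. The IPS controls were males 347M and 354M and another male (358M) of 3 years 9 months. The trained IPS animals were males 334M and 348M and another male (343M) of 6 years 0 months. Animals 334M, 347M, 348M and 354M thus gave both regions. Every array of IPS came from a male. The labels name the arrays of each region differently and give no hybridisation date, so region and a possible batch cannot be told apart.

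NEFH encodes the heavy neurofilament subunit. Neurofilaments are the intermediate filaments of neurons, built from heavy, medium and light subunits with alpha-internexin or peripherin. The long phosphorylated tail of the heavy subunit marks large-calibre myelinated axons and, in primate cortex, a subset of large projection neurons. SCN3B encodes the beta-3 subunit of voltage-gated sodium channels, a membrane protein with a single immunoglobulin-like domain that associates with the pore-forming alpha subunits and alters their gating and transport to the cell surface. Alpha subunits are concentrated at the axon initial segment and the nodes of Ranvier, where ankyrin G, spectrin and neurofascin anchor them.

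Values are given as deposited, in log2 units after subtraction of each probe set's own median across arrays. A value of 0 is therefore the middle of a probe set's own range, and the levels of NEFH and SCN3B cannot be set against each other. A rough signal class was recovered from how finely the deposited numbers are spaced. NEFH and 2 SCN3B probe sets were of the high class (a signal of 256 or more) in all 12 arrays. MmunewRS.814.1.S1_at had the spacing of the high class in 10 arrays, where 11 were required, and was put in the middle class (16 or more). None of the 4 carried values at the lower limit of the array. In whole tissue, a smaller number of cells that express a gene and less of its RNA per cell cannot be told apart.

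NEFH read higher in IPS than in SII. In the SII controls the probe set read -0.01 in animal 340F, -0.34 in 347M and -0.39 in 354M, and in the trained SII animals -0.68 in 334M, -0.23 in 335F and -0.15 in 348M. In IPS it read 0.01 in 347M, 0.63 in 354M and 0.88 in 358M among the controls, and 0.56 in 334M, 0.91 in 343M and 0.71 in 348M among the trained animals. All 6 IPS arrays lay above all 6 SII arrays, but the lowest IPS array, from control 347M, stood just above the highest SII array, from control 340F. The other 5 IPS arrays were well separated from SII.

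The NEFH group means were -0.25 ± 0.21 in SII controls, -0.35 ± 0.29 in trained SII animals, 0.51 ± 0.45 in IPS controls and 0.73 ± 0.18 in trained IPS animals (SD, n = 3 each). In the order of these means, the trained and control groups of a region are neighbours and overlapped, while the step from SII to IPS did not. Averaged over training, IPS exceeded SII by 0.91 ± 0.19 log2 units (SE, limma), which is a 1.89-fold difference. Among the 4481 probe sets of high signal this was the fourth largest positive difference, where the median was 0.11 and the 5th and 95th percentiles were -0.36 and 0.45. All 6 IPS arrays lay above all 6 SII arrays in 3.19% of the high-signal probe sets and in 0.639% of all probe sets. Since the gene was chosen by this contrast, nothing is read from these shares.

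SCN3B had the opposite order in both high-signal probe sets. MmugDNA.34281.1.S1_at read 0.72 in 340F, 0.11 in 347M and 0.64 in 354M among the SII controls, and 0.06 in 334M, 0.85 in 335F and 0.45 in 348M among the trained SII animals. In IPS it read -0.23 in 347M, -0.26 in 354M and -0.70 in 358M among the controls, and -0.47 in 334M, -0.09 in 343M and -0.06 in 348M among the trained animals. All IPS arrays lay below all SII arrays, and the nearest pair were the trained animals 348M in IPS and 334M in SII. The highest values belonged to the female animals 335F and 340F.

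MmugDNA.34284.1.S1_at gave a similar picture. In SII it read 0.35 in 340F, 0.06 in 347M and 0.42 in 354M among the controls, and 0.16 in 334M, 1.06 in 335F and 0.40 in 348M among the trained animals. In IPS it read -0.32 in 347M, -0.12 in 354M and -0.26 in 358M among the controls, and -0.31 in 334M, -0.06 in 343M and -0.46 in 348M among the trained animals. The IPS arrays again lay below all SII arrays without overlap, and 1 array, from the trained female 335F, stood far above the others.

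MmugDNA.34281.1.S1_at had group means of 0.49 ± 0.33 in SII controls, 0.46 ± 0.40 in trained SII animals, -0.40 ± 0.26 in IPS controls and -0.21 ± 0.22 in trained IPS animals (SD, n = 3 each). For MmugDNA.34284.1.S1_at they were 0.27 ± 0.19, 0.54 ± 0.47, -0.23 ± 0.10 and -0.28 ± 0.21 in the same order. The IPS minus SII differences were -0.77 ± 0.20 and -0.66 ± 0.18 log2 units (SE), so the IPS signal was 0.586 and 0.634 times that of SII. They ranked 23rd and 46th from the lowest of the 4481 high-signal probe sets. Among these, 0.379% had all 6 IPS arrays below all 6 SII arrays, a share that is again given only as a description.

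**Figure D1:**
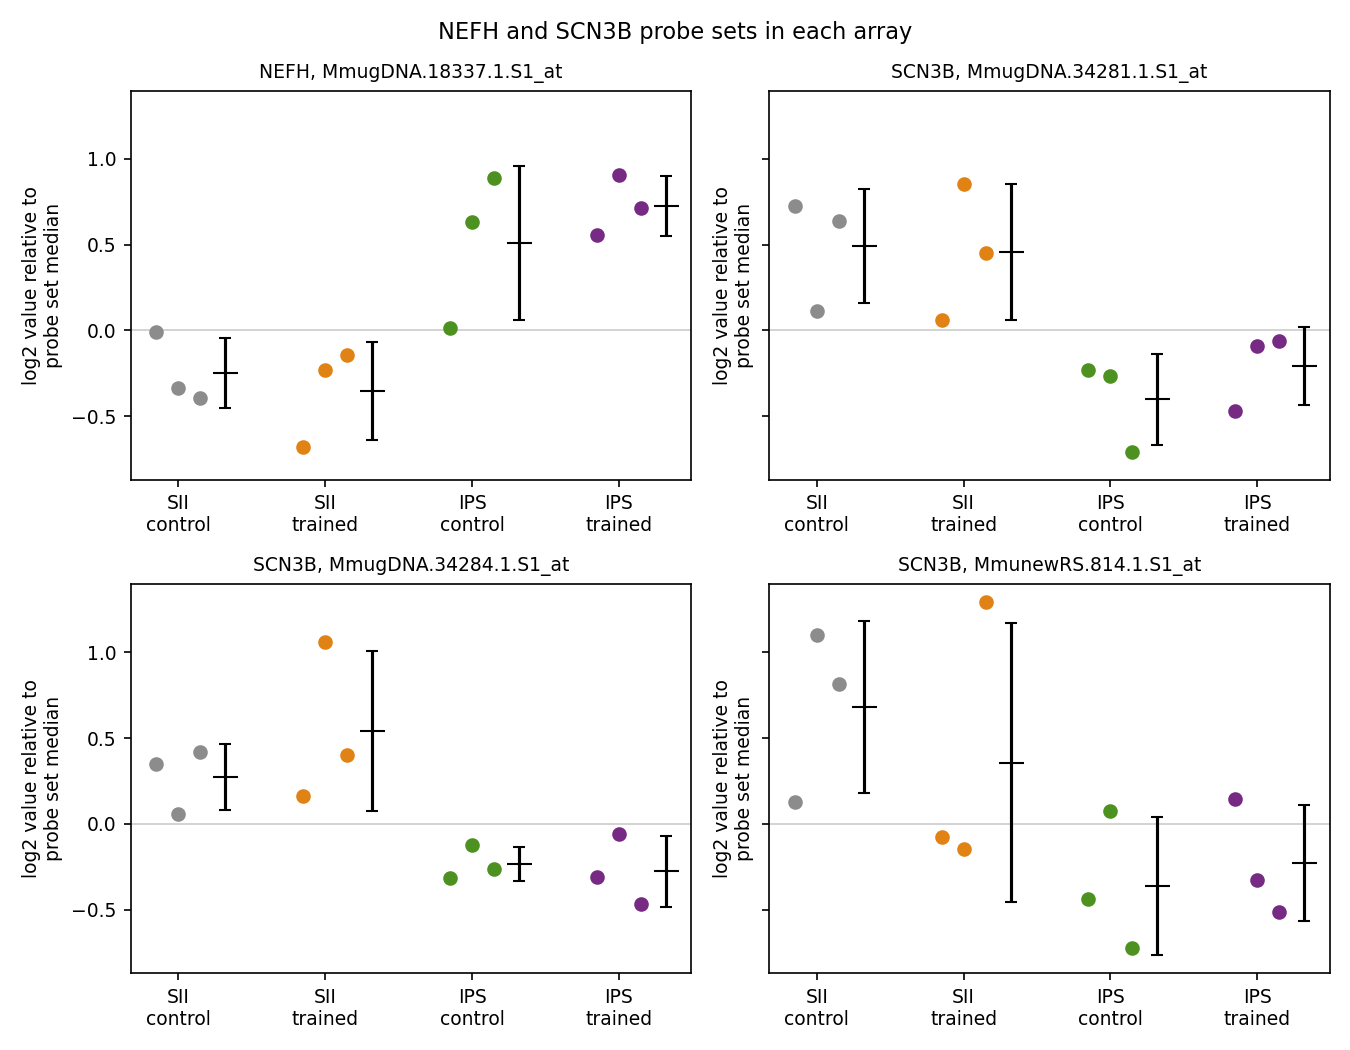
Each point is 1 array, with the log2 value relative to the probe set's own median over 12 arrays on the vertical axis and the 4 groups on the horizontal axis. Bars give the group mean ± SD (n = 3). The NEFH points of IPS all lie above those of SII, the points of MmugDNA.34281.1.S1_at and MmugDNA.34284.1.S1_at lie below, and MmunewRS.814.1.S1_at overlaps between regions.

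The third SCN3B probe set, MmunewRS.814.1.S1_at, had the same sign of difference with a much larger spread. It read 0.13 in 340F, 1.10 in 347M and 0.81 in 354M among the SII controls, and -0.08 in 334M, -0.15 in 335F and 1.29 in 348M among the trained SII animals. In IPS it read -0.44 in 347M, 0.08 in 354M and -0.72 in 358M among the controls, and 0.15 in 334M, -0.32 in 343M and -0.51 in 348M among the trained animals. Only the SII arrays of 347M, 348M and 354M stood clear of IPS, and the other 3 SII arrays lay within the IPS range. Its group means were 0.68 ± 0.50, 0.36 ± 0.81, -0.36 ± 0.40 and -0.23 ± 0.34 (SD, n = 3, SII controls, trained SII, IPS controls, trained IPS), and its regional difference was -0.82 ± 0.30 (SE). That placed it 601st from the lowest among the 25346 probe sets of high or middle signal.

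Animals that gave both regions allow the difference to be read within an animal. NEFH was higher in IPS than in SII by 0.35 in 347M, 0.86 in 348M, 1.02 in 354M and 1.23 in 334M, with a mean of 0.87 ± 0.38 (SD, n = 4). All of these animals had the same sign, with the smallest step in a control and the largest in a trained animal. A positive sign in all 4 animals was found in 23.3% of the high-signal probe sets.

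SCN3B was lower in IPS in the same animals for both high-signal probe sets. The differences of MmugDNA.34281.1.S1_at were -0.53 in 334M, -0.35 in 347M, -0.51 in 348M and -0.90 in 354M, with a mean of -0.57 ± 0.24 (SD, n = 4). Those of MmugDNA.34284.1.S1_at were -0.47, -0.37, -0.87 and -0.54 in the same order, with a mean of -0.56 ± 0.21. The probe sets thus had the same sign in every animal but did not rank the animals alike, since the largest step was in control 354M for the first and in trained 348M for the second. A negative sign in all 4 animals was found in 5.00% of the high-signal probe sets.

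MmunewRS.814.1.S1_at differed by -1.54 in 347M, -1.80 in 348M, -0.74 in 354M and 0.22 in 334M, a mean of -0.96 ± 0.91 (SD, n = 4). Its sign was thus negative in 3 animals and positive in the trained animal 334M.

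**Figure D2:**
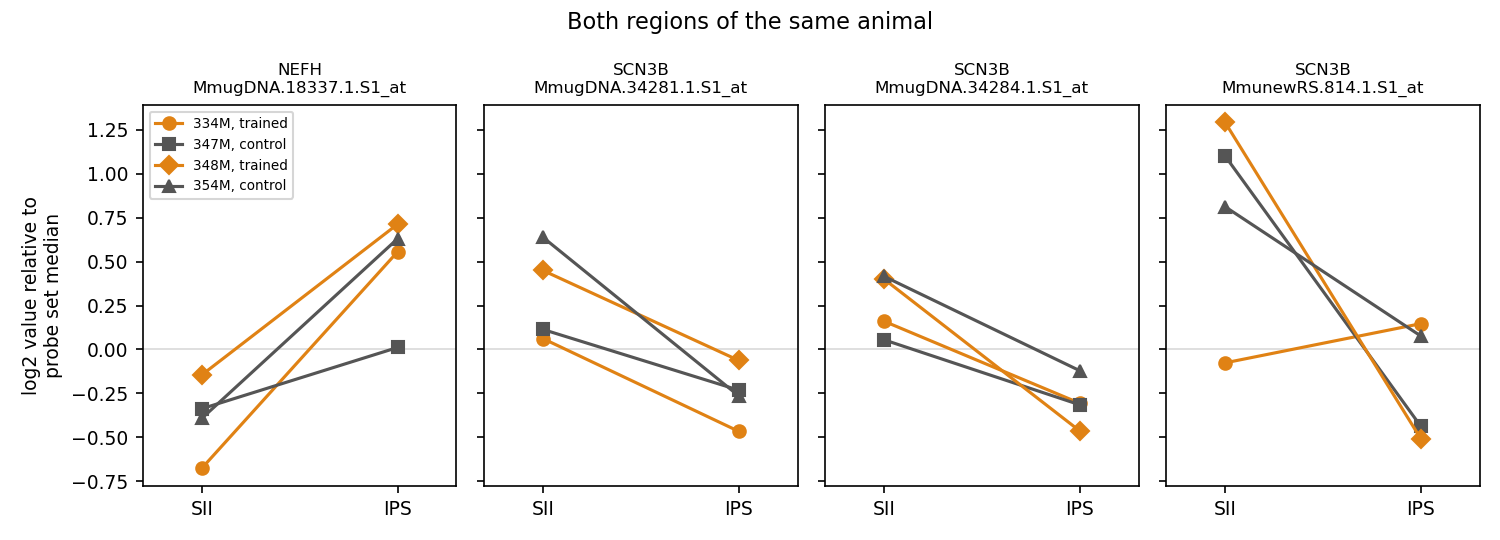
Lines join the SII and IPS arrays of the same animal, with the log2 value relative to the probe set's median on the vertical axis, orange for trained and grey for control animals. NEFH is higher in IPS in all 4 animals, by 0.35 to 1.23, and the lines of the high-signal SCN3B probe sets all fall, while MmunewRS.814.1.S1_at has 1 line that runs the other way.

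The 3 SCN3B probe sets did not follow each other equally over the 12 arrays. MmugDNA.34281.1.S1_at and MmugDNA.34284.1.S1_at had a Pearson r of 0.87, and 0.72 after the 4 group means were removed. Within regions (6 arrays each) their r was 0.81 in SII and 0.02 in IPS. MmunewRS.814.1.S1_at had an r of 0.48 with the first and 0.40 with the second, and -0.22 and -0.21 once the group means were removed. What the third probe set shared with the others was therefore the step between regions and not the order of arrays within groups. These correlations share the same libraries and 4 animals that appear in both regions, and are given without p.

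NEFH and SCN3B were negatively correlated over all arrays, as their choice implies, with r of -0.66, -0.62 and -0.56 for the 3 SCN3B probe sets in the order above. With group means removed the values were 0.17, 0.40 and -0.03, so the inverse relation was not seen among arrays of the same group.

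The spread of MmunewRS.814.1.S1_at moved with a reading of RNA integrity. The actin 3' minus 5' difference is the centred value of an actin probe set at the 3' end minus that at the 5' end. It is therefore relative to the other arrays, and its sign does not tell which end had more signal. It was 0.25 in 340F, -1.87 in 347M and -1.71 in 354M in the SII controls. The trained SII animals had 1.17 in 334M, 0.63 in 335F and -1.54 in 348M. In IPS it lay between -0.79 and 1.37. The SII arrays with the lowest actin differences (347M, 354M and 348M) were also the ones with the highest values of this SCN3B probe set.

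Over the 12 arrays the Pearson r was -0.83 and Spearman's rho -0.66, and r was -0.71 without the 2 arrays farthest from the median actin difference. Within regions r was -0.95 in SII and -0.49 in IPS (6 arrays each). A correlation with actin as low as that of MmunewRS.814.1.S1_at was found in 0.576% of the 25346 probe sets of high or middle signal, whose median r was 0.06. The other SCN3B probe sets both had an r of -0.16, and NEFH had 0.31. With the actin difference as a covariate, an alternative chosen after the data were seen, the regional difference of MmunewRS.814.1.S1_at was -0.49 ± 0.20 (SE) in place of -0.82 ± 0.30. Those of NEFH (0.91), MmugDNA.34281.1.S1_at (-0.82) and MmugDNA.34284.1.S1_at (-0.65) kept their sign and nearly their size. A GAPDH covariate, also chosen after the data were seen, gave -0.63 for MmunewRS.814.1.S1_at and 0.97 for NEFH. It gave -0.74 for MmugDNA.34281.1.S1_at and -0.56 for MmugDNA.34284.1.S1_at.

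**Figure D3:**
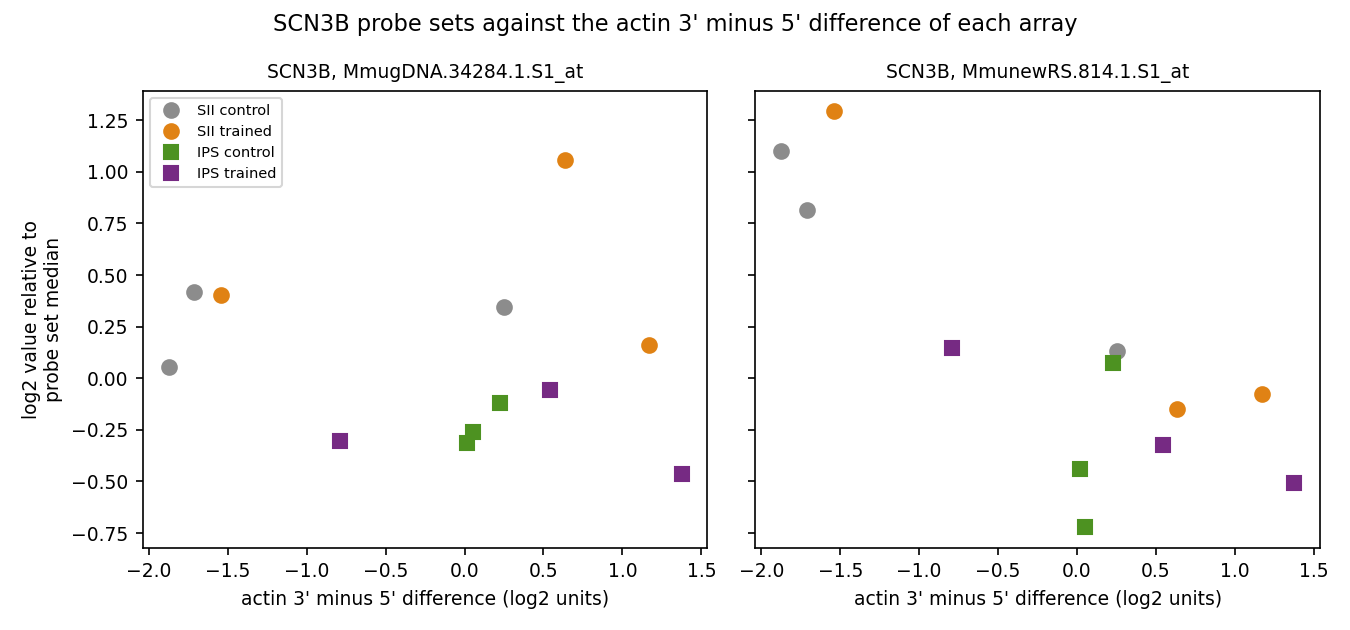
The value of MmugDNA.34284.1.S1_at (left) and MmunewRS.814.1.S1_at (right) in each of the 12 arrays is plotted against that array's actin 3' minus 5' difference, both in log2 units. On the right the SII arrays at actin differences of -1.87 to -1.54 have the highest values (r = -0.83), and on the left no such order is seen (r = -0.16).

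A second property of the arrays moved with SCN3B. The hybridisation controls (27 probe sets for spiked transcripts) had mean values of 0.48 in SII control 340F, 0.54 in trained SII animal 335F and 0.44 in trained IPS animal 348M, while the remaining arrays lay from -0.13 to 0.08. SII arrays 340F and 335F are those of the female animals and held the highest values of MmugDNA.34281.1.S1_at. Over 12 arrays the r of the hybridisation controls was 0.66 with this probe set, 0.48 with MmugDNA.34284.1.S1_at, -0.14 with MmunewRS.814.1.S1_at and -0.14 with NEFH. Spearman's rho was 0.84 for MmugDNA.34281.1.S1_at and 0.54 for MmugDNA.34284.1.S1_at, and r with group means removed was 0.70 and 0.39. Without the 2 arrays farthest from the median of the controls, r was 0.28 for MmugDNA.34281.1.S1_at and -0.21 for MmugDNA.34284.1.S1_at. The size of both Pearson values thus depended on those arrays. Within regions the first had 0.76 in SII and 0.64 in IPS, and the second 0.72 and -0.60. Without the 3 arrays, again an alternative chosen after the data were seen, IPS minus SII was 1.00 for NEFH, -0.64 for MmugDNA.34281.1.S1_at, -0.46 for MmugDNA.34284.1.S1_at and -0.95 for MmunewRS.814.1.S1_at. In male animals alone, the differences were 1.00, -0.62, -0.51 and -1.08. The size of the 2 high-signal SCN3B differences was thus smaller without these arrays, with the same sign, and that of NEFH was larger.

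The study's own question was how trained animals compared with controls in each region. In SII, NEFH differed between trained and control animals by -0.11 ± 0.27 log2 units (SE, 95% interval -0.71 to 0.50). The SCN3B differences were -0.03 ± 0.28 (-0.65 to 0.59) for MmugDNA.34281.1.S1_at, 0.27 ± 0.26 (-0.31 to 0.85) for MmugDNA.34284.1.S1_at and -0.32 ± 0.43 (-1.28 to 0.64) for MmunewRS.814.1.S1_at. Trained and control arrays did not separate in any of the 4 probe sets (0 of 4, against 7.08% of all probe sets), and the signs of the SCN3B probe sets were not the same. In limma 0 of the 4 passed an adjusted p of 0.05 (each adjusted p was 1.00, and the unadjusted p ran from 0.323 to 0.916). Over all 52766 probe sets 0 passed as well (0.00%), and 2043 (3.87%) had an unadjusted p under 0.05.

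In IPS the training difference of NEFH was 0.21 ± 0.27 (-0.39 to 0.82). SCN3B differed by 0.20 ± 0.28 (-0.43 to 0.82), -0.04 ± 0.26 (-0.62 to 0.55) and 0.13 ± 0.43 (-0.83 to 1.09) in the order of probe sets above. Trained and control arrays overlapped here too (0 of 4 separated, against 9.49% of all probe sets), and each limma adjusted p was 1.00 (unadjusted p 0.450 to 0.895). Again 0 of 52766 probe sets passed (0.00%), and 1726 (3.27%) had an unadjusted p under 0.05. The training intervals of the high-signal probe sets reached from -0.71 to 0.85 log2 units over both regions. A positive training difference of the size of the regional one lay within the interval of MmugDNA.34281.1.S1_at in IPS and of MmugDNA.34284.1.S1_at in SII. Such a size lay outside the interval of each in the other region, and outside those of NEFH in both regions. For MmunewRS.814.1.S1_at, whose intervals were wider, a positive difference of that size lay within the interval in IPS and outside that in SII. A negative one of that size lay within both.

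Whether training moved the step between regions was tested as the difference of the IPS and SII training differences. It was 0.32 ± 0.38 (-0.53 to 1.17) for NEFH, 0.23 ± 0.39 (-0.64 to 1.09) for MmugDNA.34281.1.S1_at, -0.31 ± 0.36 (-1.12 to 0.50) for MmugDNA.34284.1.S1_at and 0.45 ± 0.60 (-0.88 to 1.79) for MmunewRS.814.1.S1_at. Each limma adjusted p was 1.00 (unadjusted 0.418 to 0.575), and 0 of 52766 probe sets passed (0.00%, with 1944 or 3.68% at an unadjusted p under 0.05). The sign of the small training values depended on single arrays. The SII difference of NEFH was 0.0084 without control 340F and 0.054 without trained 334M, and its IPS difference was -0.033 without control 347M. The SII difference of MmugDNA.34281.1.S1_at was 0.087 without control 340F, 0.042 without control 354M and 0.16 without trained 334M. In IPS, MmugDNA.34284.1.S1_at turned to 0.016 without control 354M and 0.060 without trained 348M, and MmunewRS.814.1.S1_at to -0.042 without control 358M and -0.069 without trained 334M.

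**Figure D4:**
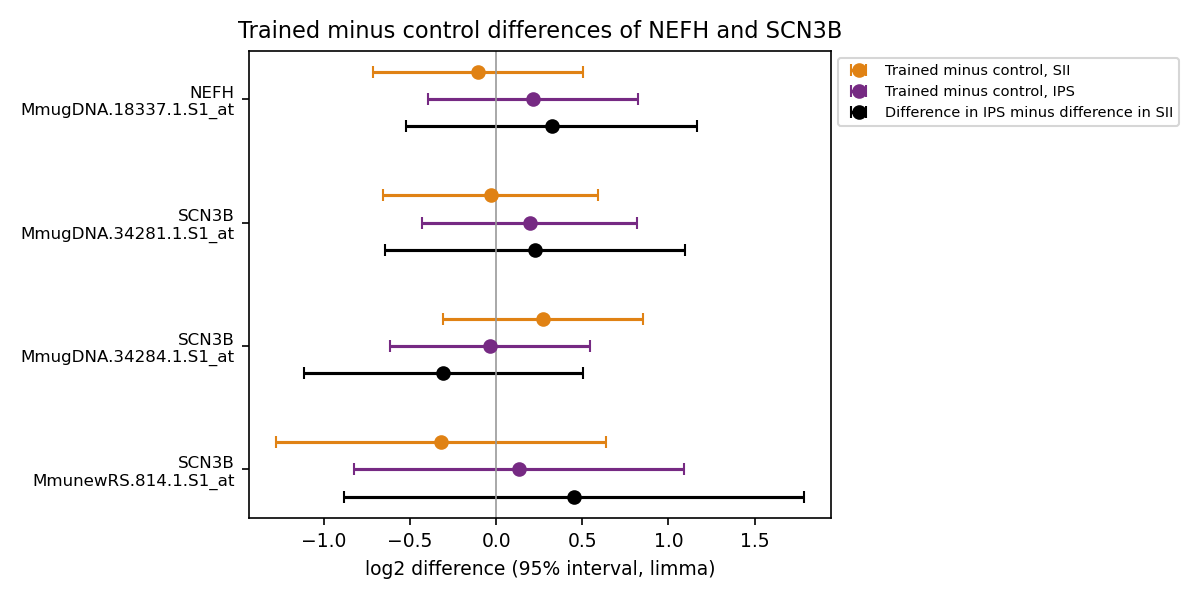
Points are limma estimates of trained minus control in SII (orange) and in IPS (purple), and of the second minus the first (black), in log2 units with 95% intervals, for the 4 probe sets of NEFH and SCN3B. Every interval spans 0.

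The other genes of the neurofilament family and of related structures were read from lists chosen with earlier results of these data known. For the IPS minus SII contrast, 0 of 52766 probe sets passed an adjusted p of 0.05 in limma (0.00%), 4888 (9.26%) had an unadjusted p under 0.05 and the smallest adjusted p was 0.0790. The median difference over all probe sets was -0.01. Of 9 intermediate filament genes, 5 had a probe set with their symbol, which leaves 4 beside NEFH. NEFM, NEFL and INA, the other subunits of cortical neurofilaments, were not matched and are not analysed here. Of the 4, 0 passed in any comparison (1 had an unadjusted p under 0.05 between regions), and their median regional difference was -0.16.

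GFAP, the astrocyte filament protein, differed between regions by -0.59 ± 0.21 (limma adjusted p 0.490), but its other probe set had 0.29. SYNM, which encodes the linker filament synemin, differed by 0.15 ± 0.15, VIM (vimentin) by -0.19 ± 0.34 (0.062 without the SII array of control 347M) and the peripheral neurofilament partner PRPH by -0.14 ± 0.28. The regional difference of NEFH was thus larger than that of each of these 4 lead probe sets. That comparison is a description, since NEFH was chosen for its size.

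Of 14 sodium channel genes, 9 were matched, which leaves 8 alpha subunits beside SCN3B. SCN2B and SCN4B, which encode beta subunits, were not matched and are not analysed here. In each comparison 0 of the 8 passed (1 had an unadjusted p under 0.05 between regions), their median regional difference was 0.08, and 6 were positive. SCN1A, the alpha subunit Nav1.1 known from fast-spiking inhibitory neurons, had a regional difference of 0.70 ± 0.20 (adjusted p 0.424 in limma), positive in 4 of 4 animals, and 0.34 in its other probe set. SCN8A, the alpha subunit Nav1.6 of nodes and distal initial segments, differed by -0.11 ± 0.16, with 0.45 ± 0.52 in a second probe set of low signal. SCN2A differed by 0.02 ± 0.21 in its lead probe set and by -0.85 ± 0.35 in a second one (limma adjusted p 0.513), and SCN3A by 0.06 ± 0.16. SCN9A, which encodes Nav1.7 of sensory neurons, differed by 0.11 ± 0.24, a sign that turned without the IPS array of trained 334M (-0.018). SCN4A, the skeletal muscle alpha subunit, which had a low signal here, had the largest training difference of the list in SII (1.48 ± 0.63, unadjusted p 0.039, adjusted p 1.00 in limma), which was 0.62 without control 354M. Among lead probe sets the alpha subunits lay between -0.11 and 0.70, but second probe sets of SCN2A and SCN7A, at -0.85 and -1.29, lay below all 3 SCN3B probe sets.

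Among 15 matched genes of the axon initial segment and node of Ranvier, 0 passed in any comparison, and 3 had an unadjusted p under 0.05 between regions. Their median regional difference was 0.11, with 8 positive and 7 negative. KCNA2, a potassium channel subunit of the juxtaparanode, was at 0.64 ± 0.18 (limma adjusted p 0.421), with -0.15 in a second probe set, and SPTBN1 (beta-II spectrin) at 0.44 ± 0.18, with -0.33 and 0.03 in its other probe sets and 0.048 for the mean over probe sets. KCNA1, which forms channels with KCNA2, was at -1.30 ± 0.58 (limma adjusted p 0.538), and at -0.86 without the SII array of trained 335F. The anchors of sodium channels were closer to 0, with ANK3 (ankyrin G) at 0.22 ± 0.14, SPTBN4 at -0.20 ± 0.24 and NFASC (neurofascin) at -0.32 ± 0.16. In the training comparisons the smallest p of the list belonged to NFASC in SII (0.39 ± 0.24) and CNTNAP1 in IPS (-0.77 ± 0.48, with values at the lower limit of the array). The value of CNTNAP1 was -0.20 without control 358M and -1.19 without control 347M, and that of NFASC 0.25 without control 354M or trained 334M.

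Of the 5 matched genes of fast-firing and long-range projection neurons, 0 passed and 0 had an unadjusted p under 0.05 between regions, and the median regional difference was -0.13. SPP1, which encodes osteopontin and marks large projection neurons in primate cortex, was at 0.45 ± 0.21, CRYM at -0.13 ± 0.16 and the fast potassium channel gene KCNC1 at -0.19 ± 0.35 (0.14 without the IPS array of trained 334M). PVALB, the calcium buffer of fast-spiking interneurons, differed between regions by -0.16 ± 0.34 and between trained and control animals in SII by -0.86 ± 0.48, a value that was -0.33 without control 340F and -0.46 without trained 334M. Among 7 microtubule and transport genes 0 passed and 0 had an unadjusted p under 0.05 between regions, with a median regional difference of -0.03. MAP1B, a microtubule protein of growing axons, was at -0.34 ± 0.38 and had the largest training difference of this list in IPS (0.88 ± 0.55). Without the IPS array of trained 343M these values were -0.65 and 0.24, and without that of trained 334M -0.082 and 1.39. DYNC1H1, the dynein heavy chain, which had a low signal here, was at -0.18 ± 0.18 and the kinesin gene KIF5C at 0.18 ± 0.22. The training difference of DYNC1H1 in SII was 0.58 ± 0.26 (unadjusted p 0.049 in limma), which did not pass after adjustment.

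**Figure D5:**
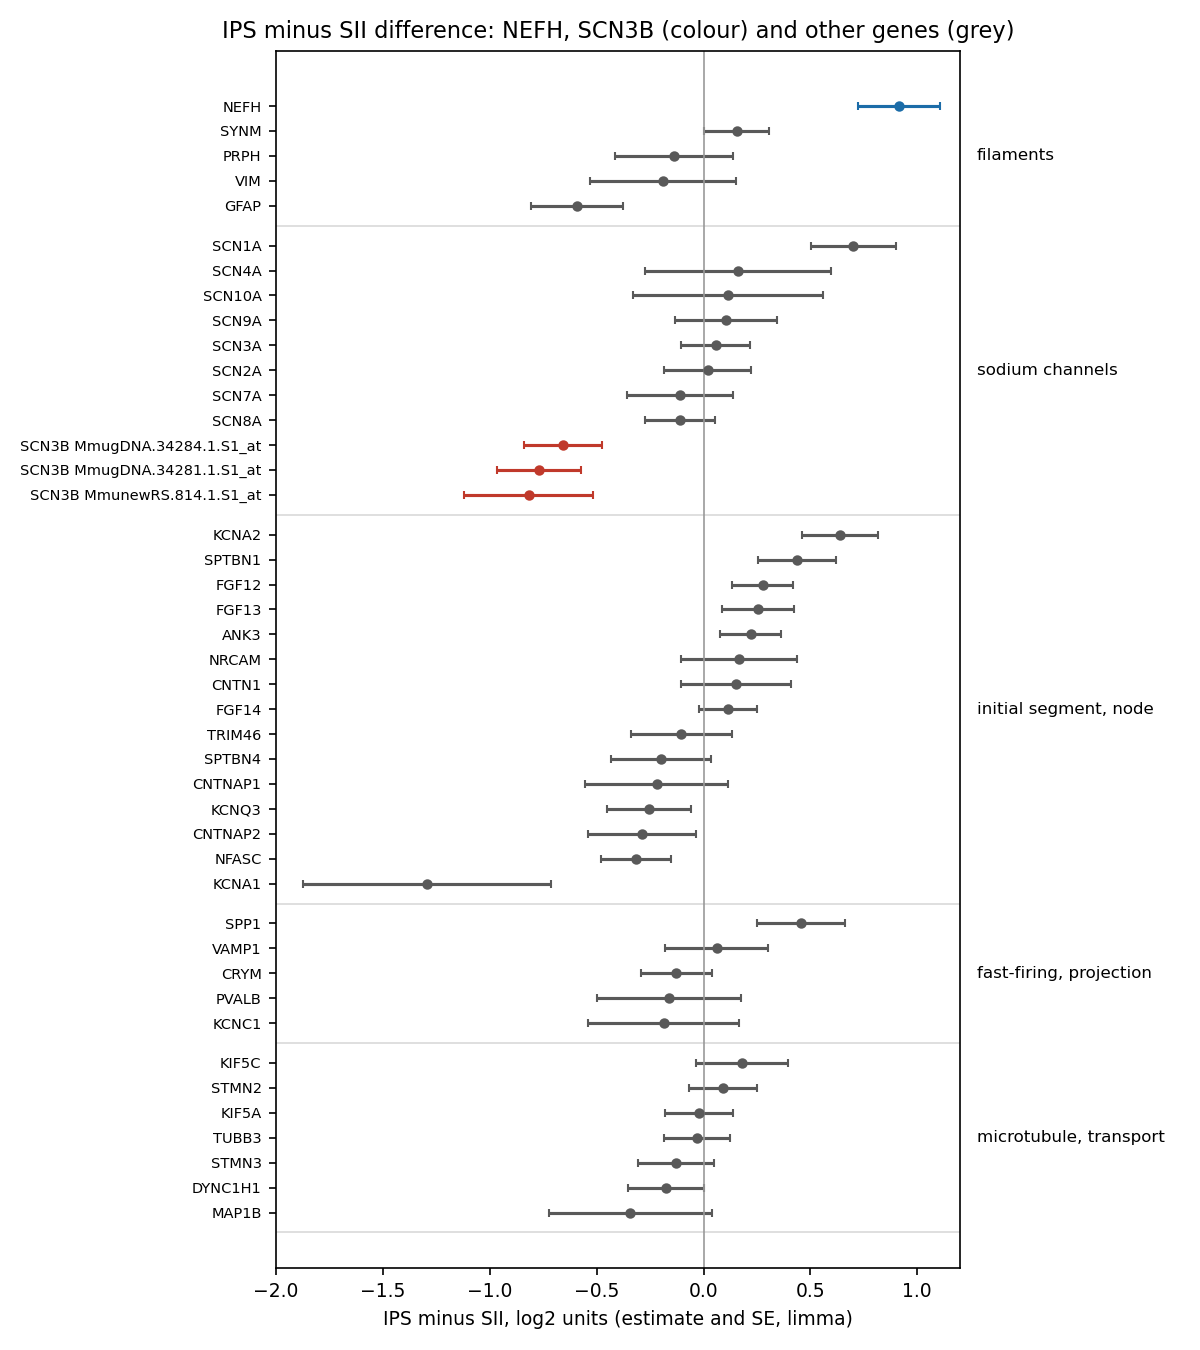
IPS minus SII in log2 units, as limma estimates with SE, for the probe sets of NEFH (blue) and SCN3B (red) and the lead probe set of each other listed gene (grey), grouped by list. NEFH lies at 0.91 while the other filament genes lie between -0.59 and 0.15, and the SCN3B probe sets lie at -0.82 to -0.66 while the lead probe sets of the alpha subunits lie between -0.11 and 0.70.

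Markers of cell types were read beside these differences. The recovered signal was of the high class in 5 of 6 general neuron markers, 4 of 6 astrocyte markers and 2 of 3 oligodendrocyte markers, as in whole cortical tissue, and in 0 of 8 microglia markers. The centred values do not show which markers are at 0. In 0 of 9 marker lists did a gene pass in the regional contrast. The median regional difference was -0.03 for 6 general neuron markers, -0.13 for 8 excitatory neuron markers, 0.13 for 5 GABA neuron markers, -0.06 for 6 astrocyte markers, -0.10 for 3 oligodendrocyte markers and -0.33 for 8 microglia markers. It was 0.13 for 6 endothelial, -0.12 for 3 red blood cell and 0.02 for 6 meningeal genes. The signs for general neurons, oligodendrocytes and red blood cells turned under quantile normalization, where the medians were 0.02, 0.0019 and 0.04.

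Single markers with large differences of either sign stood in several lists. On the side of SCN3B were FLT1 of endothelial cells (-1.32 ± 0.40) and SOX9 of astrocytes (-1.86 ± 0.75), both of low signal. Of the 6 astrocyte markers 4 were negative, but of the 6 endothelial markers only FLT1 was negative and 5 were positive. On the side of NEFH were the neuronal RNA-binding protein gene ELAVL4 (0.51 ± 0.15) and VWF of endothelial cells (0.95 ± 0.36, with -0.68 in a second probe set). The general neuron markers, which include ELAVL4, were split into 3 positive and 3 negative. Of the 8 excitatory neuron markers, 5 were negative and 3 positive. Among them SLC17A7, the vesicular glutamate transporter of cortical excitatory neurons, was at -0.89 ± 0.29 (limma adjusted p 0.471), and NRGN (neurogranin) at -0.72 ± 0.32, while RORB was at 0.38 ± 0.38, TBR1 at 0.28 ± 0.13 and CAMK2A at 0.24 ± 0.28. Without the 3 arrays with raised hybridisation controls SLC17A7 was at -0.48 and NRGN at -0.33. The mean of the 8 excitatory markers lay at 0.10 to 0.18 in SII control arrays, -0.07 to 0.19 in trained SII arrays, -0.31 to -0.13 in IPS control arrays and -0.27 to 0.38 in trained IPS arrays. Among 8 microglia markers, 7 were negative, with C1QB at -0.70 ± 0.13 (limma adjusted p 0.228) and CSF1R at -0.59 ± 0.19. Their mean lay at -0.28 to 0.35, 0.12 to 0.30, -0.49 to -0.23 and -0.13 to 0.20 in the same order of groups. The part of these cell types in the SCN3B and NEFH differences was not tested.

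The genes whose values were most like those of NEFH over the 12 arrays were sought among 2747 high-signal probe sets of 2182 named genes. FGF9, a growth factor made by neurons, came first with a Pearson r of 0.93 (Spearman's rho 0.98), and 0.72 with group means removed. Its own regional difference was 0.56. It was followed by GASK1B (r = 0.88), SSX2IP (0.87), COPS6 (0.86) and SLC12A5 (0.86), the last of which encodes the neuronal chloride exporter KCC2. SLC12A5 had a small regional difference of 0.18 and an r of 0.81 with group means removed, so its likeness to NEFH was also present among arrays of the same group. At the other end stood HINT1 (r = -0.82), SORBS2 (-0.81) and TAFA1 (-0.79).

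For SCN3B the likeness was taken to MmugDNA.34284.1.S1_at, the high-signal probe set with the smaller spread within groups. MAST3, a microtubule-associated kinase, came first with an r of 0.93 (rho 0.92) and 0.89 with group means removed. CAMKK2, a kinase activated by calcium and calmodulin, had an r of 0.92, but 0 of its 2 other probe sets had the same sign of likeness. SLC25A22, the mitochondrial glutamate carrier, followed with 0.91, the small GTPase gene ARF3 with 0.90 and MAP2K4 with 0.89. The lowest were CLNS1A (-0.93), EXOC1 (-0.92) and HNRNPH1 (-0.91). In all 8 of these genes the r with group means removed was at least 0.77 in size, so the likeness did not rest on the regional step alone. All these correlations were picked as extremes among many, share the same libraries and have no p.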

How the data were processed

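The authors deposited log2 signals per probe set with the row median over 12 arrays subtracted (largest remaining row median 2.5e-07). The submitters' processing notes name MAS5 and no version. The log base was taken from the range these numbers span, since neither it nor the array scaling was stated in the sources. RNA was purified with a lipid tissue kit and turned into biotinylated cRNA by 3' in vitro transcription, per the labels' protocols. Of 52865 probe sets, 99 controls were left out. Of the others, 24956 had 1 symbol in the gene table, 361 several and 27449 none, and genes were named only from single symbols. Signal classes came from the step size of the stored numbers, which grows with the signal before centring (at least 256 or 16 in 11 of 12 arrays, 4481 high, 20865 middle, 17522 low), and 9898 probe sets carried a lowest value shared by at least 2 arrays.

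The model had 4 group means and a correlation of 0.0474 between arrays of the same animal, and was run in R 4.3.3 with limma 3.58.1 and statmod 1.5.0 (residual degrees of freedom 8, prior 2.22). Tests were 2-sided, with Benjamini-Hochberg adjustment over all 52766 probe sets at 0.05. The scripts were tested on simulated data. An exact permutation test of 3 arrays against 3 cannot give a p below 0.1. The number of arrays limits the precision. The genes, the lists and the rule for named genes were chosen with earlier results of these data known. The rule took every NEFH and SCN3B probe set, the 5 genes most and the 3 least like each by Pearson r, up to 3 genes a list by regional p and 1 by each training p. ANK3, SPTBN4, NFASC (regional value), SCN2A, SCN3A, SCN7A, PRPH, TBR1, RORB, CAMK2A, FLT1, SOX9, ELAVL4 and VWF, and the regional value of PVALB, were added after their values were seen. A gene's lead probe set was the one with the most arrays of high signal, then with the smallest spread within groups. Alternatives changed the normalization, left out single arrays, female animals, weak signals or the animal correlation, added sex, age, array weights or a replicate block, or took gene means. Fits with a 3' minus 5' covariate, without 3 arrays and over 4 animals without a block were added after the data were seen.

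The replicate numbers of the labels did not always follow the animals, since 347M had number 2 in SII and 1 in IPS, and 354M had 3 and 2. Deviations from group means of arrays with the same number correlated at -0.07, -0.20 and 0.06 between the SII groups and at -0.03, 0.00 and 0.01 between the IPS groups. Arrays of the same animal correlated as weakly, at 0.06 in 334M, 0.04 in 347M, -0.09 in 348M and 0.05 in 354M. These correlations therefore cannot tell whether arrays were paired. The pairing of regions by animal comes from the labels.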

Additional observations from a re-analysis of the deposited data

How the results depend on the processing

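The IPS minus SII differences of the 4 NEFH and SCN3B probe sets kept their sign in every alternative run: NEFH lay between 0.82 and 1.04, MmugDNA.34281.1.S1_at between -0.87 and -0.57, MmugDNA.34284.1.S1_at between -0.75 and -0.46 and MmunewRS.814.1.S1_at between -1.08 and -0.49. The training values had no stable sign. In IPS the training value of the SCN3B probe set MmugDNA.34284.1.S1_at turned to 0.021 with age and to 0.025 with the GAPDH covariate. Without the 3 arrays with raised hybridisation controls it was 0.062, and its difference of the training values between regions was 0.0034. Gene means average all 3 SCN3B probe sets. They gave -0.023 in SII, 0.10 in IPS and 0.12 for the difference of the training values, each opposite in sign to MmugDNA.34284.1.S1_at alone. MmunewRS.814.1.S1_at turned to 0.21 (actin covariate) and 0.057 (GAPDH covariate) in SII and to -0.067 (age) in IPS. With single arrays left out, turned values ranged from -0.21 to 0.054 (NEFH, SII), -0.033 to 0.40 (NEFH, IPS), -0.23 to 0.16 (MmugDNA.34281.1.S1_at, SII), -0.14 to 0.060 (MmugDNA.34284.1.S1_at, IPS) and -0.069 to 0.35 (MmunewRS.814.1.S1_at, IPS). The regional value ranged from -0.44 to 0.14 for KCNC1, from -0.018 to 0.27 for SCN9A and from -0.40 to 0.062 for VIM, and the IPS training value of PRPH from -0.016 to 0.29. With gene means, which average all probe sets of a gene, VIM turned to 0.075 and SCN8A to 0.16. The lead probe set of SCN8A turned to 0.021 in the 4 animals with both regions. The cause was not tested.

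Counts of probe sets (of genes, for gene means) past an adjusted p of 0.05 in limma, 0 in each comparison as reported, became 1 (quantile normalization), 2 (array weights), 2 (sex) and 1 (high and middle signals) in SII, 1 (without the 3 arrays) and 1 (actin covariate) for the difference of the training values, and 5 (quantile normalization), 2 (sex) and 3 (gene means) for IPS minus SII. Leaving out single arrays gave 0 to 5 in SII (5 without trained SII array 3), 0 to 2 in IPS and 0 to 2 for the difference (2 in both without trained IPS array 1), and 0 to 3 for IPS minus SII (3 without trained SII array 3 or trained IPS array 2). With the replicate block, which does not stand for a pairing in the labels, 0 passed in all 4 comparisons, and it changed no call. The spread among 3 arrays a group limits what can be seen of a training difference.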
